A study of Mus musculus with 6 samples.

Results

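The genes examined here were all those on the mouse mitochondrial chromosome. They were taken as every row of the count table whose chromosome was MT. There were 37 of them among 28368 rows, made up of 13 protein-coding genes, 2 rRNA genes and 22 tRNA genes. The RNA came from whole mouse tumours. The treated group was 3 libraries from tumours of mice given a 12-h therapy that the labels call MS-DF-MS. The control group was 3 libraries from tumours of untreated mice, for which no time is given. The study's title describes implanted depots that hold a pair of drugs, a STING agonist released before an inducer of apoptosis. The control mice are labelled as untreated and no group has an empty depot, so the depot and its drugs cannot be told apart. Tumour type, strain, age, sex and the drugs are not named in the labels. The labels leave unsaid whether the libraries of a group are from separate animals, and the p-values measure only the spread between these libraries.

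The mitochondrial chromosome is a small circle, and both of its strands are transcribed into long RNAs that run through many genes. Most of these RNAs are cut where a tRNA lies between the other genes. The mRNAs are then given short poly(A) tails, which in several of them complete the stop codon. The proteins are core subunits of the respiratory chain and of ATP synthase, while every enzyme that makes, cuts, modifies, translates or degrades mitochondrial RNA is imported from nuclear genes. In these files the strand named heavy-strand transcript here (the plus strand) carried 28 genes. The light-strand transcript (the minus strand) carried 9, namely mt-Nd6 and 8 tRNA genes.

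Some sequences bear directly on how these counts can be read, and all of them are from the GENCODE M21 transcripts on GRCm38, whose spans matched those of all 37 rows. The end of mt-Nd5 (MT:13522-13565, plus strand) and the end of mt-Nd6 (MT:13552-13595, minus strand) run into each other, with the 14 shared bases in capitals. They are shown because these neighbouring genes on opposite strands had the largest changes among the protein-coding genes.
mt-Nd5 end: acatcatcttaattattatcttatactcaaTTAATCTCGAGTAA
mt-Nd6 end: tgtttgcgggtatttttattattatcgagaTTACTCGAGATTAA

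The tRNA for glutamate, mt-Te (MT:14071-14139, minus strand), comes just before mt-Nd6 on the light-strand transcript, with no base between them. The tRNA for serine mt-Ts1 (MT:6870-6938, minus strand) and the tRNA for leucine mt-Tl1 (MT:2676-2750, plus strand) are shown with it as the other tRNA rows with the highest counts.
mt-Te: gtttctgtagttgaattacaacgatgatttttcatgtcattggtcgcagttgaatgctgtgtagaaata
mt-Ts1: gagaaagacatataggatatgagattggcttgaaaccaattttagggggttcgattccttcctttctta
mt-Tl1: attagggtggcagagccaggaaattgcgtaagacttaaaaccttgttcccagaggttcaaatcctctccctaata

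The 22 tRNA genes are 59 to 75 bases long, shorter than a single 150-base read. A count on a tRNA row therefore cannot separate the cut tRNA from a longer RNA that runs through it. Libraries were made from RNA that had passed 2 rounds of selection for poly(A), so the counts cover tailed RNA and what came with it, and not the bulk of the mitochondrial rRNA and tRNA. Of the 13 protein-coding genes, 10 have an annotated span that ends in a whole stop codon. In mt-Nd1 and mt-Nd2 its last 2 bases also belong to the tRNA gene that follows on the same strand. The other 3 end in a T, in capitals in the next sequences, that the tail completes.
mt-Co3 end (MT:9361-9390): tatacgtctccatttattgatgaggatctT
mt-Nd4 end (MT:11515-11544): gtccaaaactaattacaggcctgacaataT
mt-Cytb end (MT:15259-15288): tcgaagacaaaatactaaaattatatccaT

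A stretch of the nuclear genome, chr1:24611535-24616197 on the minus strand, repeats a run of the mitochondrial genes almost letter for letter. Its 7 rows in the table matched mt-Co1, mt-Co2, mt-Atp6, mt-Co3, mt-Nd3, mt-Nd4l and mt-Nd4 at 99.71% to 100% identity over the aligned bases. One substitution separated mt-Co1 from its copy Gm29216 (A1066T) and one separated mt-Nd3 from its copy Gm28438 (T3C), counted from the first base of the mitochondrial gene, and the other 5 had none. The differing base is in capitals.
mt-Co1 (MT:6390-6433): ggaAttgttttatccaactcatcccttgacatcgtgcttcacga
Gm29216 (chr1:24616145-24616188): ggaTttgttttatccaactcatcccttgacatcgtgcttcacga
mt-Nd3 (MT:9459-9501): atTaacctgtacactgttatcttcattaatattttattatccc
Gm28438 (chr1:24613077-24613119): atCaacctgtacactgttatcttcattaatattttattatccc

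Reads from these stretches cannot be told apart over most of their length, and the deposited values of the copies tracked those of the mitochondrial genes. Per length (FPKM, fragments scaled to gene length and library size), Gm28661 stood at 0.988 to 0.993 of mt-Co2 over the 6 libraries. Gm10222 stood at 1.00 to 1.01 of mt-Nd4l, Gm28437 at 0.971 to 0.996 of mt-Co3, Gm28438 at 1.03 to 1.05 of mt-Nd3 and Gm10925 at 1.06 to 1.07 of mt-Atp6. Copies that cover only part of their gene stood lower, with Gm28439 at 0.607 to 0.653 of mt-Nd4 and Gm29216 at 0.291 to 0.335 of mt-Co1. The sources do not state whether a read that matches both was shared between the rows or counted on both. If it was counted on both, adding a copy to its gene counts that read again. The levels of these 7 mitochondrial genes are therefore uncertain. The 6 more diverged nuclear copies, at 90% identity or more but under 99%, stood at no more than 0.0056 of the FPKM of their mitochondrial gene. The other 6 protein-coding genes, mt-Nd1, mt-Nd2, mt-Atp8, mt-Nd5, mt-Nd6 and mt-Cytb, had no copy at 99% identity among the counted genes. The search covered only those genes and matches of at least 200 bases, so copies elsewhere in the nuclear genome were not looked for. The last 43 bases of mt-Atp8 lie within mt-Atp6, and Gm10925 matched mt-Atp6 from its first base. The rest of mt-Atp8 lies between mt-Co2 and mt-Atp6, whose copies are neighbours in the nuclear stretch. The tRNA mt-Ts1 lies in the same way between mt-Co1 and mt-Co2. None of the 7 copy rows covers the bases between the copies, and those bases were not searched. The levels of mt-Atp8 and mt-Ts1 may thus share the uncertainty of the 7 genes.

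**Figure D1:**
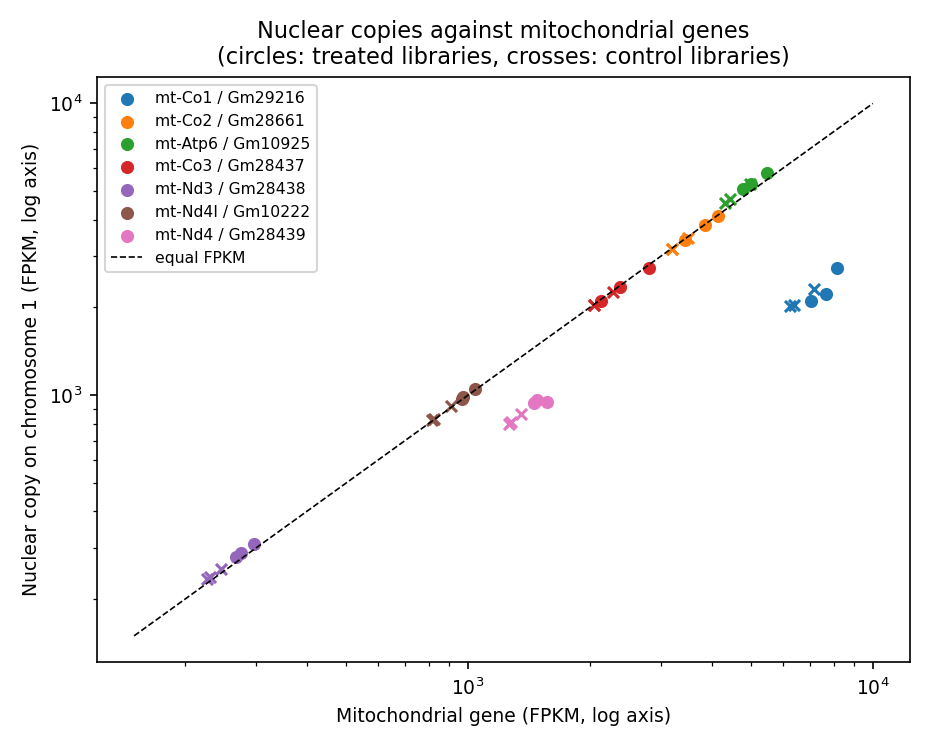
FPKM of each of the 7 nuclear copies on chromosome 1 (vertical, log axis) against FPKM of its mitochondrial gene (horizontal, log axis), with circles for the 3 treated libraries, crosses for the 3 control libraries and a dashed line at equal values. 5 pairs lie along the line, and the pairs of mt-Nd4 and mt-Co1 lie below it.

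The library protocol marked strand. Whether the counts kept strands apart was checked on 13 nuclear rows whose exons lie at least 90% inside those of a gene on the opposite strand with at least 20 FPKM. In 11 of them the row stood at no more than 0.294% of the FPKM of the gene opposite. The exceptions were protein-coding genes, Cox20 at 14.5% of Hnrnpu and Slirp at 60.2% of Snw1.

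The mitochondrial rows held a larger part of the counts in the treated tumours. They took 3.80%, 3.63% and 3.35% of all counts in treated libraries 1 to 3, against 3.03%, 3.00% and 3.22% in control libraries 1 to 3. The groups did not overlap, and the means were 3.59% ± 0.225 in treated and 3.08% ± 0.123 in control libraries (SD, n = 3 each), a ratio of 1.17, with no test made of summed shares. Treated library 3 lay closest to the control libraries. With the 7 nuclear copies added, the shares were 5.10%, 4.80% and 4.43% in treated against 4.05%, 4.01% and 4.34% in control libraries, again without overlap. The copies alone did overlap, at 1.30%, 1.17% and 1.08% in treated against 1.02%, 1.02% and 1.12% in control libraries.

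Protein-coding genes made up nearly all of these counts in both groups. They held 98.61% to 99.02% of the mitochondrial counts in treated and 98.86% to 98.95% in control libraries. The rRNA genes held 0.824% to 1.23% in treated and 0.881% to 0.988% in control libraries, and the tRNA genes 0.156% to 0.168% in treated and 0.150% to 0.164% in control libraries. The classes thus overlapped between the groups in their parts of the mitochondrial counts. The strands did not. Light-strand rows held 0.939%, 1.24% and 1.23% of the mitochondrial counts in treated libraries, against 0.854%, 0.786% and 0.823% in control libraries. As a share of all counts, the light-strand sum was 1.61 times and the heavy-strand sum 1.16 times as high in treated as in control libraries. mt-Nd6 alone held 84.8% to 88.8% of the light-strand counts in treated and 82.1% to 84.1% in control libraries, so the light-strand sum is largely mt-Nd6. Strand was checked on nuclear rows alone. Whether the mt-Nd6 and mt-Te rows hold reads from RNA of the opposite strand was not tested.

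Per gene, 27 of the 37 rows had counts high enough to test, namely all 13 protein-coding genes, both rRNA genes and 12 tRNA genes. No library had more than 17 counts on any of the other 10 tRNA rows. By edgeR's quasi-likelihood test over all 18049 genes tested, with Benjamini-Hochberg adjustment at 0.05, 3 mitochondrial genes were higher in treated tumours and 0 were lower. Over all genes tested, 1.36% were called higher and 0.249% lower. At an unadjusted p under 0.05, 15 mitochondrial rows were higher and 0 lower, where 9.12% of all genes tested were higher. The groups did not overlap, with treated higher, in 13 of the 27, against 12.0% of all genes tested. The log2 fold change of treated over control was positive in 24 rows and negative in 3, with a median of 0.24, beside -0.0032 over all genes tested. DESeq2 called 8 mitochondrial rows higher, where it called higher 4.47% of all genes to which it gave an adjusted p.

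**Figure D2:**
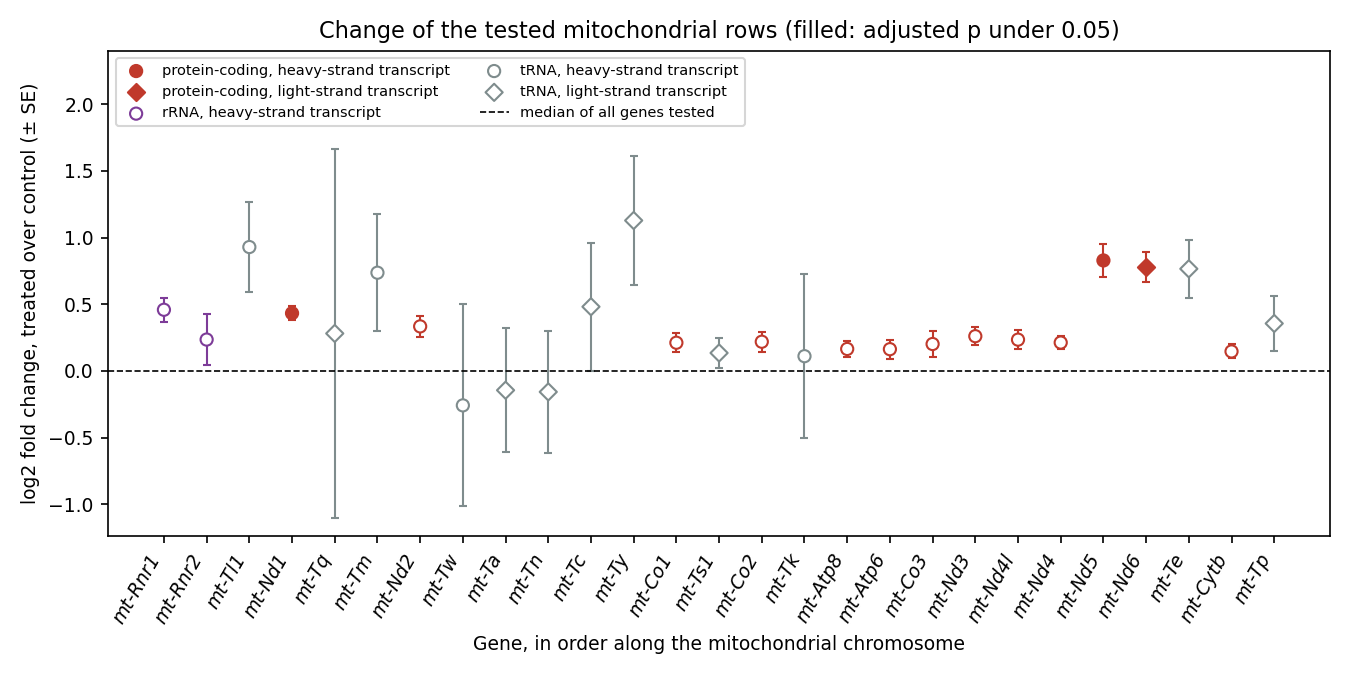
Log2 fold change of treated over control for the 27 tested mitochondrial rows in chromosome order, with bars for the standard error of the edgeR fit, circles for heavy-strand and diamonds for light-strand transcripts, filled where the adjusted p was under 0.05. The 13 protein-coding genes all lie above the median of all genes, which is the dashed line, and mt-Nd5, mt-Nd6 and mt-Te stand together above their neighbours mt-Nd4 and mt-Cytb.

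mt-Nd1, a membrane subunit of complex I (NADH dehydrogenase, where electrons enter the respiratory chain), rose in the treated tumours, with the smallest standard error of the 3 called genes. Its level was 1822, 1857 and 1720.6 CPM (counts scaled to library size, with TMM factors) in treated libraries 1 to 3, against 1340.4, 1289 and 1370.0 CPM in control libraries 1 to 3. All 3 treated libraries lay well above all 3 control libraries. The log2 fold change was 0.43 ± 0.05 (SE; 1.35-fold; edgeR adjusted p = 0.00624). Without control library 2 the adjusted p was 0.0805.

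mt-Nd5, one of the large proton-pumping subunits of complex I, rose most among the protein-coding genes. It had 1054, 1551 and 1305 CPM in treated libraries, against 726, 706 and 768 CPM in control libraries. The treated libraries were spread widely, with library 2 the highest and library 1 the lowest, and none overlapped with the controls. The log2 fold change was 0.83 ± 0.13 (SE; 1.78-fold; edgeR adjusted p = 0.0200). Leaving out control library 1, 2 or 3 gave adjusted p values of 0.0880, 0.135 and 0.1002.

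mt-Nd6, also a complex I subunit and the only protein gene of the light-strand transcript, rose nearly as much. Its level was 298, 410.0 and 368 CPM in treated libraries, against 216, 193 and 218 CPM in control libraries. Treated library 2 was again the highest and treated library 1 the lowest. The log2 fold change was 0.78 ± 0.11 (SE; 1.72-fold; edgeR adjusted p = 0.0185). The adjusted p was 0.0600 without treated library 2 and 0.0764, 0.128 and 0.0912 without control libraries 1, 2 and 3. In human cells the matching mRNA is known as the one mitochondrial mRNA without a regular poly(A) tail. The share of tailed molecules in these libraries was not tested.

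The neighbour mt-Te, with far fewer counts, had a fold change of like size. It had 5.15, 8.40 and 7.28 CPM in treated libraries, against 4.40, 3.57 and 4.28 CPM in control libraries. The groups did not overlap, but the log2 fold change of 0.77 ± 0.22 (SE) did not pass the test (edgeR adjusted p = 0.149). Ratios of FPKM within a library, which scaling between libraries cannot move, overlapped between the groups for these 3 neighbours. The ratio of mt-Nd6 to mt-Nd5 was 0.994, 0.929 and 0.991 in treated and 1.04, 0.962 and 0.995 in control libraries. The ratio of mt-Te to mt-Nd6 was 0.130, 0.154 and 0.149 in treated and 0.153, 0.139 and 0.148 in control libraries.

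mt-Cytb, the cytochrome b subunit of complex III, lies just past mt-Te on the heavy-strand transcript and stood apart from these 3. Its level was 4583, 4991 and 4572 CPM in treated libraries, against 4443, 4169.5 and 4168 CPM in control libraries. The groups did not overlap, and the log2 fold change was 0.15 ± 0.05 (SE; edgeR adjusted p = 0.229). The ratio of mt-Nd6 to mt-Cytb FPKM was 0.143, 0.181 and 0.177 in treated libraries, against 0.107, 0.102 and 0.115 in control libraries. All treated values were higher, with a log2 difference of 0.62 and an exact two-sided permutation p of 0.1, the smallest that 3 against 3 can give. The ratio of mt-Nd5 to mt-Cytb likewise did not overlap, at 0.144, 0.195 and 0.179 in treated and 0.102, 0.106 and 0.116 in control libraries. On the other side, mt-Nd4 over mt-Cytb did overlap, at 0.438, 0.391 and 0.409 in treated and 0.393, 0.392 and 0.396 in control libraries. Away from these neighbours, mt-Nd1 over mt-Cytb did not overlap, at 0.475, 0.445 and 0.450 in treated and 0.361, 0.370 and 0.393 in control libraries. mt-Cytb had the lowest log2 fold change of the 13 protein-coding genes.

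**Figure D3:**
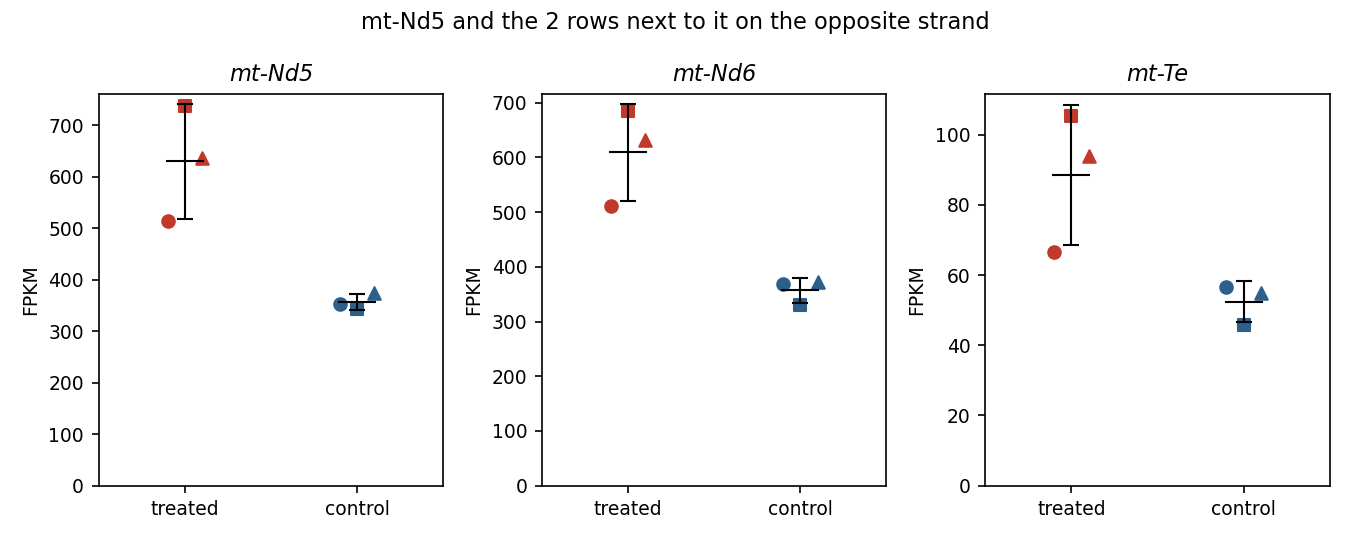
FPKM of mt-Nd5, mt-Nd6 and mt-Te in each treated and control library (markers: circle, square and triangle for libraries 1, 2 and 3), with the mean and SD of each group as a bar. In all 3 genes treated library 2 is highest and treated library 1 lowest of the treated libraries, and no treated value falls among the control values.

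The other complex I genes were higher in every treated library than in any control library but did not pass the test. mt-Nd2 had 1349, 1209 and 1127 CPM in treated libraries, against 1038, 936 and 949 CPM in control libraries (log2 fold change 0.33 ± 0.08 SE; edgeR adjusted p = 0.0908). mt-Nd4 had 2420.4, 2350.5 and 2249.7 CPM in treated, against 2100.4, 1970.4 and 1986 CPM in control libraries (log2 fold change 0.21 ± 0.05 SE; edgeR adjusted p = 0.0953). mt-Nd3 and mt-Nd4l had log2 fold changes of 0.26 and 0.24 with edgeR adjusted p values of 0.116 and 0.165. All 7 complex I genes were thus without overlap between the groups, with a median log2 fold change of 0.33, and 3 of the 7 were called. Over all genes tested, 12.0% did not overlap with treated higher and 1.36% were called higher.

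The genes of complex IV (cytochrome c oxidase, which hands electrons to oxygen) overlapped between the groups. mt-Co1, the subunit that holds the site of oxygen reduction, had 14129, 13614 and 12194 CPM in treated libraries, against 10855, 11168 and 12460.3 CPM in control libraries. Treated library 3 was below control library 3. The log2 fold change was 0.21 ± 0.07 (SE; edgeR adjusted p = 0.205). mt-Co2 and mt-Co3, the other core subunits, had log2 fold changes of 0.22 and 0.20 with edgeR adjusted p values of 0.220 and 0.364. mt-Atp8 and mt-Atp6, subunits of the membrane part of ATP synthase (complex V), had log2 fold changes of 0.17 and 0.16 with edgeR adjusted p values of 0.239 and 0.317. These ATP synthase genes overlap by 43 bases on the same strand, and a read there belongs to both.

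**Figure D4:**
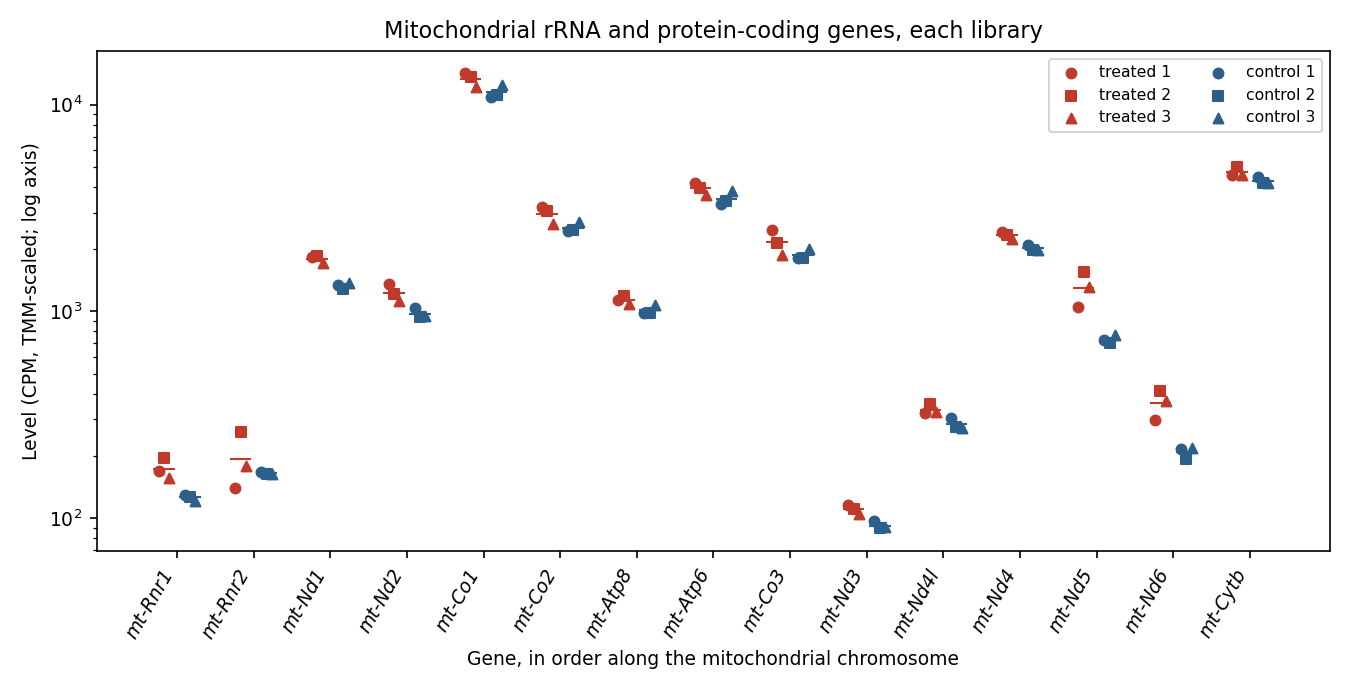
Level of the 2 rRNA and 13 protein-coding genes in each library (CPM after TMM scaling, log axis), treated in red left of control in blue, with a line at each group's mean. mt-Nd1, mt-Nd5 and mt-Nd6 have all treated points well above the control points, and mt-Co1, mt-Co2, mt-Co3 and mt-Atp6 have points that overlap.

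Taken per treated library, the median log2 ratio of the 13 protein-coding genes to the control mean was 0.33 in library 1, 0.26 in library 2 and 0.16 in library 3. All 13 were above the control mean in libraries 1 and 2, and 12 were in library 3. Their log2 fold changes stayed positive in each of the scalings, filters, tests and left-out libraries that were tried. The 7 genes with a nuclear copy had a median log2 fold change of 0.21, with 0 called and 5 at an unadjusted p under 0.05. The 6 genes without a copy among the counted genes had a median of 0.38, with 3 called and 6 at an unadjusted p under 0.05. These 6 include mt-Atp8, which lies within the run of genes repeated in the nuclear stretch. The copies themselves had log2 fold changes of 0.15 to 0.28, 0 of the 7 called and 4 at an unadjusted p under 0.05. Over all genes tested, 1.36% were called higher, and 9.12% were higher at an unadjusted p under 0.05. With the counts of each copy added to its gene, edgeR called mt-Nd1, mt-Nd5 and mt-Nd6 as before.

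Levels per length spanned a wide range within the chromosome. As deposited and averaged over the 6 libraries, mt-Co1 was highest at 7105 FPKM, followed by mt-Atp6 at 4833, mt-Atp8 at 4660.3, mt-Co2 at 3556, mt-Cytb at 3471 and mt-Co3 at 2281 FPKM. The complex I genes followed, with mt-Nd1 at 1448 FPKM, mt-Nd4 at 1399.9, mt-Nd2 at 939, mt-Nd4l at 923, mt-Nd5 at 493, mt-Nd6 at 483 and mt-Nd3 at 257 FPKM. The ranges over libraries overlapped within the neighbouring pairs mt-Atp6 and mt-Atp8, mt-Co2 and mt-Cytb, mt-Nd1 and mt-Nd4, mt-Nd2 and mt-Nd4l, and mt-Nd5 and mt-Nd6, and between no other neighbours in this order. The order changes with the counts of the nuclear copies added to their genes, per length of the mitochondrial gene. Then mt-Atp6 stood highest at 9935 FPKM, followed by mt-Co1 at 7819, mt-Co2 at 7066, mt-Atp8 at 4660.3 and mt-Co3 at 4533 FPKM, and mt-Nd3 at 522 FPKM lay above mt-Nd5 and mt-Nd6. These sums are too high wherever a read was counted on both rows, and mt-Atp8 had no copy counts to add. Across the 13 genes the level in FPKM and the log2 fold change had a Spearman's rho of -0.75, and of -0.66 over the 11 genes other than mt-Nd5 and mt-Nd6. With the copies added to the levels, rho was -0.82 over the 13 genes. These genes share libraries and transcripts and several share reads with a copy, so the correlation is a description only.

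The rRNA genes differed in their spread between treated libraries. mt-Rnr1, the RNA of the small ribosomal subunit, had 168, 196 and 156 CPM in treated libraries, against 130.0, 127 and 121 CPM in control libraries. No treated value fell among the controls, and the log2 fold change of 0.46 ± 0.09 (SE) just missed the threshold (edgeR adjusted p = 0.0516). It passed without treated library 3 (edgeR adjusted p = 0.0300) and in none of the other 5 fits that left out a library (0.0772 to 0.242). mt-Rnr2, the RNA of the large ribosomal subunit, had 140.3, 261 and 180 CPM in treated libraries, against 166, 164 and 163 CPM in control libraries. Treated library 1 was the lowest of the 6 libraries and treated library 2 the highest. Its log2 fold change was 0.24 ± 0.19 (SE; edgeR adjusted p = 0.619) and -0.035 without treated library 2. The ratio of mt-Rnr2 to mt-Rnr1 FPKM was 0.504, 0.806 and 0.694 in treated libraries, against 0.772, 0.781 and 0.811 in control libraries (log2 difference -0.27, exact two-sided permutation p = 0.3).

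None of the 12 tested tRNA rows was called by edgeR, 3 were higher at an unadjusted p under 0.05 and 9 had a positive log2 fold change. Of all genes tested, 9.12% were higher at that unadjusted p. DESeq2 called mt-Te. mt-Ts1, which lies opposite the end of mt-Co1 with a 3-base overlap, was the highest tRNA row at 449 FPKM. That level may share reads with the nuclear stretch, since mt-Ts1 lies within the run of genes repeated there. mt-Ts1 had 42.5, 34.4 and 33.0 CPM in treated libraries, against 31.2, 32.5 and 36.5 CPM in control libraries (log2 fold change 0.14; edgeR adjusted p = 0.633). mt-Tl1, which sits between mt-Rnr2 and mt-Nd1 with no base to spare, had 3.50, 8.73 and 5.90 CPM in treated libraries, against 2.73, 2.84 and 3.95 CPM in control libraries. Its groups overlapped, and the log2 fold change was 0.93 ± 0.33 (SE; edgeR adjusted p = 0.234). The ratio of mt-Tl1 to mt-Rnr2 FPKM did not overlap, at 0.526, 0.705 and 0.691 in treated and 0.346, 0.364 and 0.510 in control libraries. That of mt-Tl1 to its other neighbour mt-Nd1 did overlap, at 0.0245, 0.0599 and 0.0437 in treated and 0.0260, 0.0281 and 0.0366 in control libraries, with treated library 1 the lowest of all 6.

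mt-Tp, the tRNA for proline and the first gene in the order of the light-strand transcript, had 3.88, 4.38 and 3.87 CPM in treated libraries, against 2.89, 2.72 and 3.87 CPM in control libraries (edgeR adjusted p = 0.459). A cluster of light-strand tRNA genes, mt-Ta for alanine, mt-Tn for asparagine, mt-Tc for cysteine and mt-Ty for tyrosine, lay between 0.264 and 1.29 CPM over the 6 libraries. In each of the 4, treated library 2 was the highest of all 6 libraries. Their log2 fold changes were -0.14, -0.16, 0.48 and 1.13, with edgeR adjusted p values of 0.922, 0.913, 0.693 and 0.309. The change of mt-Ta and of mt-Tn was positive without treated library 1 and without treated library 3, and that of mt-Tc was near 0 without treated library 2.

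Of 88 nuclear genes whose proteins act on mitochondrial RNA, in 6 lists (transcription, processing and tailing, decay, modification, translation factors and aminoacyl-tRNA synthetases), 1 was called higher and 0 lower. One call in 88 is close to the 1.36% called higher over all genes tested. At an unadjusted p under 0.05, 4 were higher and 5 lower, where 9.12% of all genes tested were higher and 6.9% lower. The median log2 fold change was 0.013. The called gene was Pnpt1, the polynucleotide phosphorylase that degrades mitochondrial RNA. It had 101.6, 89.5 and 92.1 CPM in treated libraries, against 55.5, 62.3 and 71.2 CPM in control libraries (log2 fold change 0.58 ± 0.10 SE; edgeR adjusted p = 0.0324). All treated values were above the controls, but the call was lost in 5 of the 6 fits that left out a library, with adjusted p values of 0.0544 to 0.188, and held only without control library 3 (0.0319).

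In the transcription list the smallest p values belonged to Tfb1m, an rRNA methyltransferase related to the transcription factor Tfb2m, and Mterf4, which acts in ribosome assembly. Their log2 fold changes were 0.41 and 0.29, with edgeR adjusted p values of 0.169 and 0.246. In the processing list they were Ptcd1 (0.43, adjusted p = 0.0871 by edgeR) and Trnt1, which adds the CCA end to tRNAs (-0.30, adjusted p = 0.170 by edgeR). In the modification list Nsun3, a methyltransferase of the methionine tRNA, led at -0.44 on the log2 scale (adjusted p = 0.0749 by edgeR) and groups that did not overlap. Translation factors (Gfm1 at -0.17, Mtif3 at 0.22) and synthetases (Iars2 at -0.19, Vars2 at 0.20) had edgeR adjusted p values of 0.285 to 0.376.

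Among nuclear genes for the mitochondrial DNA and its nucleotides, 1 stood far from the rest. Cmpk2, a mitochondrial nucleotide kinase known as an interferon-induced gene, had 139.7, 243 and 98.9 CPM in treated libraries, against 15.5, 17.5 and 20.9 CPM in control libraries. Every treated value was several times every control value, and treated library 2 was the highest. Its lowest treated value was in library 3, whereas mt-Nd5 and mt-Nd6, also highest in library 2, were lowest of the treated in library 1. A link between these genes was not tested. The log2 fold change of Cmpk2 was 3.16 ± 0.32 (SE; 8.94-fold; edgeR adjusted p = 0.00261). It was the single call among 11 nucleotide supply genes, whose median log2 fold change was -0.020, where 1.36% of all genes tested were called higher. Of 13 replication and nucleoid genes 0 were called by edgeR, with 2 higher at an unadjusted p under 0.05, where 9.12% of all genes tested were higher. Mgme1, a nuclease that trims mitochondrial DNA ends, came closest (0.59 ± 0.12 SE; edgeR adjusted p = 0.0516; DESeq2 adjusted p = 0.000372), followed by the helicase Twnk (0.35; edgeR adjusted p = 0.220). Of 8 regulators of mitochondrial biogenesis 0 were called by edgeR, with 1 higher and 4 lower at an unadjusted p under 0.05, where 6.9% of all genes tested were lower. Pprc1, a coactivator of the PGC-1 family, had 58.0, 55.9 and 52.5 CPM in treated libraries, against 66.7, 75.1 and 72.5 CPM in control libraries (-0.36; edgeR adjusted p = 0.0579). For Gabpb1, a subunit of the transcription factor GABP, the log2 value was -0.38 (adjusted p = 0.128 by edgeR).

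The nuclear subunits of the same respiratory complexes had medians nearer 0 than the mitochondrial subunits. Of 79 tested nuclear genes edgeR and DESeq2 each called 0. At an unadjusted p under 0.05 by edgeR, 2 were higher and 0 lower, where 9.12% of all genes tested were higher and 6.9% lower. The 2 were the complex I subunits Ndufs5 (0.19) and Ndufa13 (0.16). The smallest p values of the other complexes belonged to Sdhd (-0.098) and Sdhb (-0.087) in complex II and to Uqcrq (0.11) and Uqcr10 (0.12) in complex III. In complex IV they belonged to Cox6a1 (0.16) and Cox4i1 (0.11), and in complex V to Atp5c1 (-0.086) and Atp5g2 (0.092). The edgeR adjusted p values of these 8 genes were 0.349 to 0.589. The median log2 fold change was 0.33 for mitochondrial and 0.035 for nuclear subunits in complex I. In complex III it was 0.15 for mt-Cytb and 0.024 for the nuclear subunits. In complex IV the medians were 0.21 for mitochondrial and 0.075 for nuclear subunits, and in complex V 0.16 for mitochondrial and 0.0079 for nuclear subunits. Complex II, which is wholly nuclear, had a median of -0.044 over 4 genes. The difference between the genomes was not tested.

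**Figure D5:**
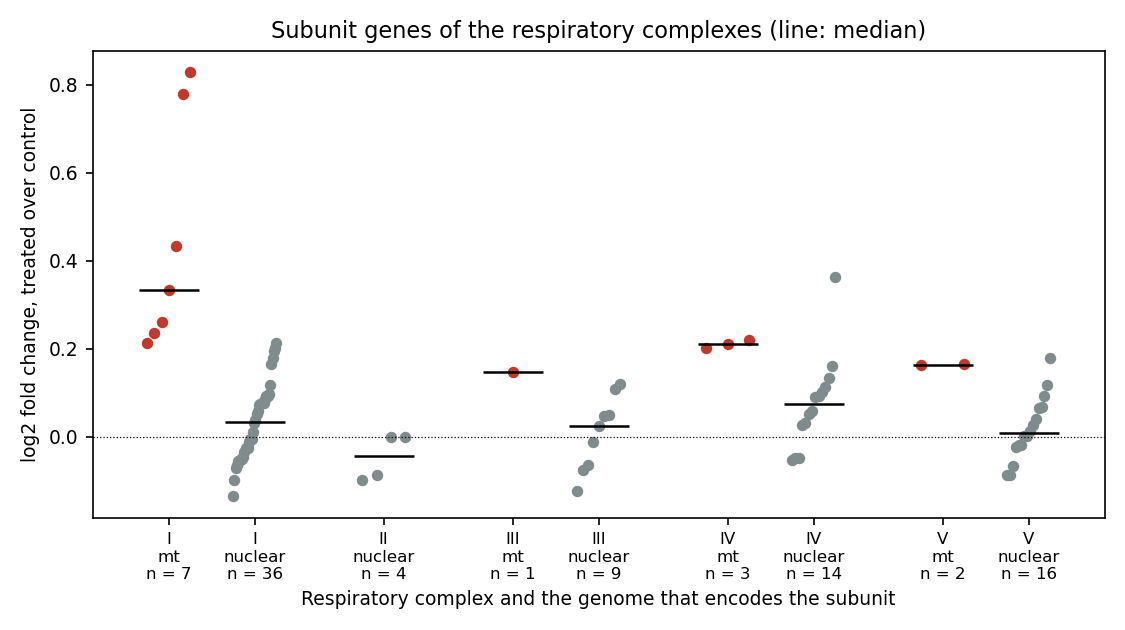
Log2 fold change of treated over control for each subunit gene of respiratory complexes I to V, mitochondrial genes in red and nuclear genes in grey, with a line at each median and the number of genes under each column. The mitochondrial subunits lie at 0.15 to 0.83, and the nuclear medians lie between -0.044 and 0.075.

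In whole tumours, more mitochondrial RNA per cell and a larger part of cells rich in it cannot be told apart. The tumours held strong melanocyte marker expression in both groups, with 10 markers summing to 22732 to 24727 CPM in treated and 22126 to 24427 CPM in control libraries. The sum of endothelial markers was higher in treated than in control libraries (161.7 to 176 against 99.3 to 125 CPM summed over 8 genes). Of these genes 5 were called higher, where 1.36% of all genes tested were. Sums of red blood cell markers were also higher without overlap (262 to 1472 against 98.0 to 249 CPM, 0 of 5 tested called), as were adipocyte markers (37.6 to 83.8 against 27.1 to 28.3 CPM, 0 of 4 tested called) and neutrophil markers (5.36 to 54.4 against 3.07 to 4.77 CPM, 0 of 6 tested called). The sum of T cell markers was lower without overlap (2.11 to 6.64 against 7.11 to 8.38 CPM, 0 of 8 called). Skeletal muscle markers, from a tissue rich in mitochondria, overlapped at 2.90 to 170.3 CPM in treated and 30.3 to 77.2 CPM in control libraries. Fibroblast (486 to 553 against 302 to 574 CPM), macrophage (62.4 to 220.3 against 138 to 195 CPM) and keratinocyte sums (0 to 83.0 against 0.124 to 0.193 CPM) overlapped too. Treated library 1 had the highest and treated library 3 the lowest of the treated sums for muscle (170.3, 30.6 and 2.90 CPM in treated libraries 1 to 3), red blood cells (1472, 486 and 262), adipocytes (83.8, 46.1 and 37.6) and neutrophils (54.4, 16.3 and 5.36). Endothelial, fibroblast, macrophage and T cell sums fell in the same order. The melanocyte sum instead rose, at 22732, 24069 and 24727 CPM in treated libraries 1 to 3. The mitochondrial share of counts fell from treated library 1 to 3, and the keratinocyte sum of 83.0 CPM was that of treated library 1. Without treated library 1 the share differed by 0.410 percentage points, against 0.512 with it, and edgeR called the same 3 mitochondrial genes. No marker was at 0 in all libraries, and the part of these cell types in the mitochondrial values was not tested. Treated library 3 stood apart on the first principal component of all genes, at 72.9 where the other 5 lay between -37.9 and 13.3. Without it edgeR called 4 mitochondrial genes, mt-Rnr1 added. Library totals were 57017043 to 66634551 counts, and the TMM factors 0.975 to 1.01.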

How the data were processed

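Per the labels' protocols, total RNA was taken from tumours with TRIzol, selected for poly(A) in 2 rounds, made into strand-marked libraries (dUTP) and read as 150-base pairs. Per the submitters' processing notes, fastp, StringTie and edgeR were used, with roles unstated; the sources used here give no aligner, genome build or annotation. The authors deposited raw counts per gene and FPKM per gene in 1 table for 6 libraries. Counts were used for the tests, FPKM for levels between genes and for ratios within a library.

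Genes were kept with edgeR's filterByExpr (minimum count 10, minimum total 15), which left 18049 of 28368, scaled by TMM and tested with edgeR 4.0.16 (quasi-likelihood F test, Benjamini-Hochberg over all genes, 0.05; R 4.3.3). The common biological variation (BCV) came to 0.252. DESeq2 1.42.0 and limma 3.58.1 (voom, with and without sample quality weights) were alternatives, with other scalings, other filters, each library left out, a replicate block, and the nuclear copies left out or added to their genes (the addition was chosen after the data were seen). Copies were found with blastn 2.17.0 among the GENCODE M21 transcripts of the counted nuclear genes (at least 99% identity over 200 bases), overlaps with bedtools 2.31.1. Shares of counts have no test. Replicates differed by far more than sampling noise (mean chi-square per gene 17.2 to 59.0), so none was merged.

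Every tested mitochondrial row is named in the text except the tRNAs beyond the 8 with the highest counts, which enter only the counts of rows. Of each nuclear list, the called members, or the 2 with the smallest p, are named. The members and lists were chosen with earlier results of these data known.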

Additional observations from a re-analysis of the deposited data

How the results depend on the processing

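The count of mitochondrial genes called, 3 by edgeR, was 8 with DESeq2, 9 with limma-voom and sample quality weights, and 0 with the replicate number as a block; with 1 library left out it ran from 0 (without control 2) to 4. Both larger counts hold mt-Rnr1, mt-Nd2, mt-Nd3, mt-Nd4 and mt-Te beside mt-Nd1, mt-Nd5 and mt-Nd6. Without the filter on low counts it was 2, since mt-Nd5 had an adjusted p of 0.0583 by edgeR. Deviations from the group means correlated at 0.0855, -0.164 and -0.107 between same-numbered libraries. With 3 libraries in a group these values cannot show whether the numbers mark a pairing or a shared batch, which the labels leave unsaid. Under the block 137 of all genes were called, against 291 without it. The count for the 88 RNA machinery genes, 1, was 0 without the filter and 0 under the block, 4 with DESeq2 (2 higher, 2 lower), 4 with voom and weights (3 higher, 1 lower), and 0 to 1 with 1 library left out. No nuclear subunit gene was called in any setting tried. The difference in the mitochondrial share was 0.512 percentage points of counts and 1.30 points of summed FPKM, which weights short genes up; without 1 library it was 0.410 to 0.632 points. The log2 difference of mt-Nd6 to mt-Cytb, 0.62, was -0.042 with mt-Nd5 in place of mt-Cytb (exact permutation p = 0.4). Without treated 2, mt-Rnr2 turned to -0.035 and mt-Tc to -0.00462; with another library left out they reached up to 0.423 and 0.720. mt-Tn turned to 0.00207 with voom and weights, 0.119 without treated 1 and 0.00169 without treated 3, and mt-Ta to 0.0494, 0.112 and 0.0275 in those settings; with 1 library left out, their lowest values were -0.719 and -0.694, both without treated 2. Where not stated, the cause was not tested. 10 tRNA rows, with at most 17 counts in a library, could not be tested.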
